A study of Mus musculus with 6 samples.

Results

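The collagen genes were described in CD8 T cells sorted from mouse tumours. They are the 44 genes, of 40879 in the count table, whose symbol is Col, a number, a and a number. They were grouped by textbook class into 11 fibrillar chains, 9 network-forming chains, 9 FACIT chains (fibril-associated collagens with interrupted helices), 6 chains of the beaded filament type VI, 4 transmembrane chains, 2 multiplexins and 3 others. The cells came from MC38-hPD-L1 tumours on day 12. MC38 is a mouse colon carcinoma line, and the hosts were C57BL/6N mice. Biotin+ cells, given as neighbours of the tumour, were compared with Biotin- cells, given as distal to it, and how the biotin was placed is not stated in the labels. Both groups share the tumour line, strain, day and CD8 T cell label, and each has 3 poly-A RNA libraries numbered as replicates 1 to 3. The labels do not tie a library to 1 animal, to pooled animals or to repeat sampling, so each p-value covers the spread among these 6 libraries, which may be technical.

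Collagens are the main structural proteins of the extracellular matrix. Their chains wind around each other in groups of 3, which requires glycine, the smallest amino acid, at the start of each block of 3 residues. Fibrillar chains form the cables of connective tissue, network-forming chains form sheets such as the basement membrane, and FACIT chains sit on the surface of fibrils. In tumours these transcripts are known mainly from fibroblasts, pericytes and some tumour cells, and CD8 T cells are known to meet collagen chiefly through receptors.

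The glycine rule can be read in the transcripts themselves, where it sets the fibrillar class apart while the other classes overlap. In the mouse GENCODE M21 transcript with the longest coding sequence, the longest unbroken run of blocks that begin with a glycine codon (GGN) was 216 to 344 blocks in the 11 fibrillar genes. It was 39 to 66 in the 9 network-forming genes, 32 to 113 in the 9 FACIT genes and 37 to 87 in the 6 beaded filament genes. Network-forming genes broke the repeat into 9 to 27 runs of at least 4 blocks, against 2 to 4 in fibrillar genes. The stretches below, 5′ to 3′, show 10 blocks from genes described further on, with capitals for a glycine codon at the start of its block. The fibrillar ones show the start of the longest run (from codon 168 in Col1a1, 164 in Col3a1 and 487 in Col11a2), and the others show where it ends (from codon 148 in Col4a1, 1147 in Col16a1 and 502 in Col6a1).
Col1a1: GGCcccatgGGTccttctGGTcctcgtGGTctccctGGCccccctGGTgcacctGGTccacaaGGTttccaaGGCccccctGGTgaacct
Col3a1: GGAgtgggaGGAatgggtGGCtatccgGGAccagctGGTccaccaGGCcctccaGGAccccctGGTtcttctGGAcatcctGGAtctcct
Col11a2: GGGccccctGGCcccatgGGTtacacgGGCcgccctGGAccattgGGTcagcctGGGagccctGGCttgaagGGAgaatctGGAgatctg
Col4a1: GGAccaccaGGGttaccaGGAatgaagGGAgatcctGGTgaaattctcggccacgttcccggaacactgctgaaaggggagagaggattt
Col16a1: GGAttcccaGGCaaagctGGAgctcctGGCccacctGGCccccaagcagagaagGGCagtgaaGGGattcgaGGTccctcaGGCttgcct
Col6a1: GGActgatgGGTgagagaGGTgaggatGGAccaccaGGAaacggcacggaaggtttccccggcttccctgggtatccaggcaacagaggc
The 3 fibrillar stretches keep the glycine codon in 10 of 10 blocks. Col16a1 misses it in 1 block and goes on in the same frame, whereas Col4a1 and Col6a1 lose the frame for the 5 blocks after the break.

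The libraries held 16440614 to 19640693 counts in Biotin+ and 16423106 to 19035864 in Biotin-. CD8 T cell markers were abundant in all 6: the 15 genes summed to 8943 to 11310 CPM (counts per 1e+06 counts of the library, scaled by edgeR's TMM factors) in Biotin+ and 4834 to 7174 CPM in Biotin-. Of these markers 5 rose in Biotin+ and 10 did not pass, and with the replicate number as a block 10 rose. Over all tested genes 1.53% rose, and 5.6% with the block. The Biotin+ replicate 2 library had the lowest TMM factor (0.815, against 0.98 to 1.13 in the others).

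Collagen transcripts were several-fold scarcer in the Biotin+ libraries. They made up 0.0284%, 0.0167% and 0.0513% of all counts in Biotin+ replicates 1 to 3, and 0.227%, 0.143% and 0.221% in Biotin-. The highest Biotin+ library was therefore below the lowest Biotin- library, and the means of 3 libraries, 0.0321 ± 0.0176% and 0.197 ± 0.0469% (SD), were 6.13-fold apart. A count was found for 25 to 28 collagen genes in each Biotin+ library and for 33 to 35 in each Biotin- library. Fewer collagen-expressing cells and less collagen RNA per cell cannot be told apart in such bulk samples.

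Among the 44 genes, 17 fell in Biotin+, 0 rose, 8 did not pass and 19 were too low to test. The test was edgeR's quasi-likelihood test over 13360 genes, at an adjusted p of 0.05, and 6.72% of all tested genes fell and 1.53% rose. At an unadjusted p below 0.05 the number of collagen genes higher in Biotin+ was also 0, and DESeq2 gave 18 lower and 0 higher (10.4% and 3.53% of all genes). This main fit used the group alone, although same-numbered libraries deviated together (processing section). With the replicate number as a block, 19 fell and 0 rose, against 12% and 5.6% of all genes. The median log2 fold change (Biotin+ against Biotin-) was -2.29 over the 25 tested collagen genes and 0.06 over all tested genes. Since a gene can enter the test through Biotin- alone, the 19 collagen genes that reached the filter level of 0.543 CPM in all 3 Biotin+ libraries were counted apart. Of these 15 fell, against 6.16% of all genes with that level. For 18 of the 25 all Biotin+ libraries lay below all Biotin- libraries, against 15.9% of all tested genes.

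**Figure D1:**
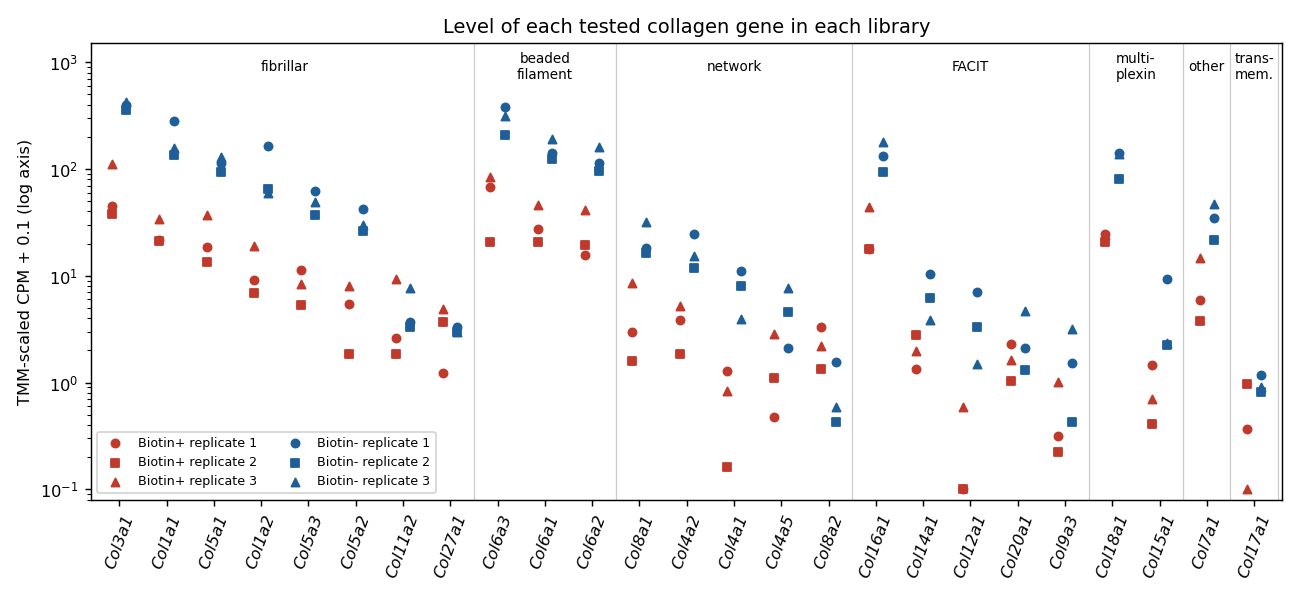
TMM-scaled CPM plus 0.1, on a log axis, of the 25 tested collagen genes in each of the 6 libraries; colours are groups, symbols are replicate numbers, and vertical lines part the classes. In 18 genes the 3 Biotin+ points lie below the 3 Biotin- points, while the points of Col11a2, Col27a1, Col20a1, Col9a3, Col4a5, Col8a2 and Col17a1 overlap.

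The fibrillar chains held the most abundant collagen transcript by mean CPM and the largest estimated drops among abundant genes. Those estimates overlapped within their errors with other abundant chains, such as Col6a3 (-2.38 ± 0.45 SE, log2) and Col18a1 (-2.38 ± 0.25 SE). The ranking of the drops is therefore not resolved. Of 11 genes 6 fell, 2 did not pass and 3 were too low to test. Col3a1 encodes the single chain of type III collagen, which accompanies type I in soft tissue. It stood at 44.55, 37.5 and 111 CPM in Biotin+ replicates 1 to 3, and at 401, 357 and 421 CPM in Biotin-. Even the highest Biotin+ library stayed far below all 3 Biotin- libraries, and Col3a1 fell 6.10-fold in the mean, or by an estimate of -2.61 ± 0.38 SE on the log2 scale (edgeR adjusted p = 0.00643).

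Type I collagen, the commonest fibril, is built from the chains of Col1a1 and Col1a2. Col1a1 was at 21.4, 21.2 and 34.0 CPM in Biotin+ and at 280.4, 136 and 157 CPM in Biotin-, which is -2.91 ± 0.32 SE on the log2 scale (edgeR adjusted p = 0.00531). Col1a2 was at 8.95, 6.75 and 18.8 CPM in Biotin+ and at 164, 65.4 and 59.9 CPM in Biotin- (-3.07 ± 0.48 SE, edgeR adjusted p = 0.0077). For both chains Biotin- replicate 1 was the highest library, 2.06-fold above the lowest Biotin- library for Col1a1 and 2.75-fold for Col1a2, and the groups did not overlap.

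The balance of the 2 chains was compared through their count ratio. The ratio of Col1a1 to Col1a2 was 2.39, 3.14 and 1.80 in Biotin+ and 1.71, 2.08 and 2.62 in Biotin-, so the groups overlapped. Per length of the coding transcript the mean ratio was 2.20 ± 0.604 (SD) over the 3 Biotin+ libraries and 1.93 ± 0.414 over the 3 Biotin- libraries. The log2 ratios differed by 0.18 (two-sided exact permutation test, p = 0.6, adjusted p = 0.75 over 5 ratios), and 3 against 3 libraries cannot give a p below 0.1. The length matters for this value: over all annotated exons of the genes the ratios become 4.62 and 4.04. In the protein, 2 chains from Col1a1 join 1 from Col1a2.

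Type V collagen, which starts fibrils and limits their width, has 3 chains, and all 3 genes fell. Col5a1 was at 18.4, 13.4 and 37.1 CPM in Biotin+ against 114, 93.7 and 129 CPM in Biotin- (log2 fold change -2.29 ± 0.34 SE). Col5a3 was at 11.3, 5.25 and 8.36 against 61.7, 37.0 and 49.3 CPM (-2.57 ± 0.32 SE). Col5a2 was at 5.34, 1.75 and 7.87 against 42.0, 26.1 and 29.6 CPM (-2.70 ± 0.46 SE). Their edgeR adjusted p-values lay between 0.00554 and 0.00837, and no Biotin+ library reached a Biotin- library in any of them.

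The remaining measurable fibrillar chains, Col11a2 and Col27a1, known mainly from cartilage, did not go along. Col11a2 was at 2.535, 1.75 and 9.205 CPM in Biotin+ and at 3.60, 3.235 and 7.62 CPM in Biotin-. Col27a1 was at 1.13, 3.625 and 4.78 CPM in Biotin+ and at 3.21, 2.85 and 2.865 CPM in Biotin-. Both pairs of ranges overlapped, and the highest library of Col11a2 was a Biotin+ one. The log2 fold changes were -0.10 ± 0.62 (SE, edgeR adjusted p = 0.945) and 0.09 ± 0.53 (SE, edgeR adjusted p = 0.941). A change of either sign, also one somewhat larger than those errors, is therefore not resolved. Both signs turned under other settings (closing section).

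**Figure D2:**
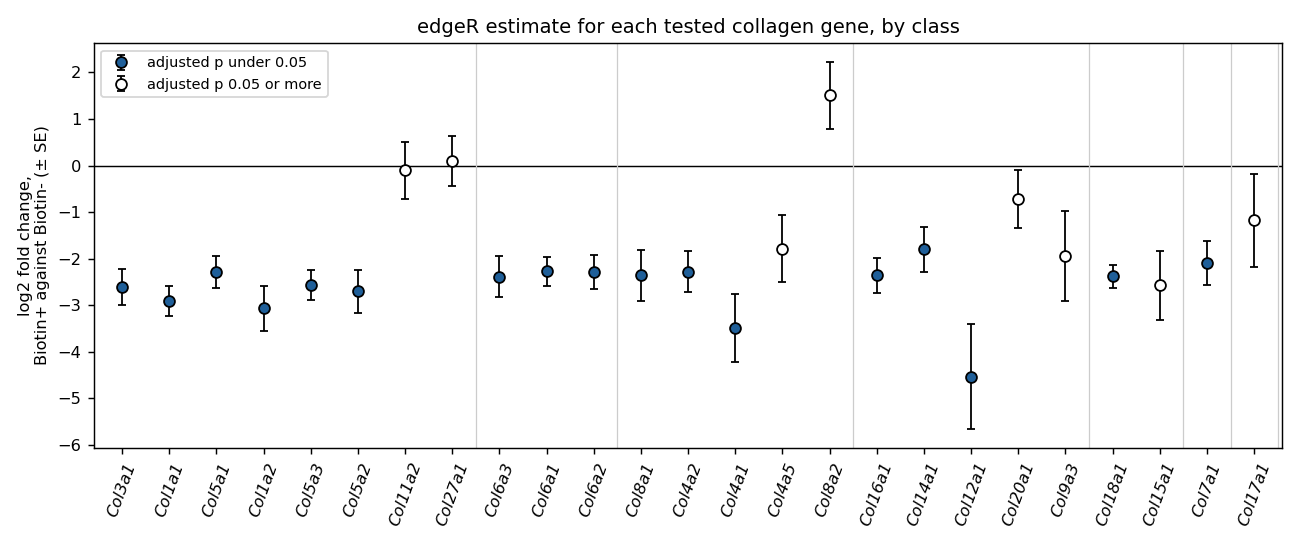
Log2 fold change of the 25 tested collagen genes, Biotin+ against Biotin-, from edgeR, with the standard error; filled points passed an adjusted p of 0.05, and vertical lines part the classes. The 17 filled points lie between -1.80 (Col14a1) and -4.54 (Col12a1), and Col11a2, Col27a1 and Col8a2 lie near or above 0.

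Type VI collagen, a beaded filament that links cells to the fibrils around them, fell as a set of 3 chains. Col6a1 was at 27.3, 20.6 and 46.0 CPM in Biotin+ and at 140.5, 123.1 and 190.1 CPM in Biotin- (log2 fold change -2.27 ± 0.31 SE, edgeR adjusted p = 0.00603). Col6a2 was at 15.5, 19.4 and 40.9 against 113, 95.9 and 162 CPM (-2.29 ± 0.36 SE). Col6a3 was at 68.0, 20.5 and 84.9 against 382, 209 and 313 CPM (-2.38 ± 0.45 SE). In each of them the Biotin+ libraries lay below the Biotin- libraries, but Col6a3 did not pass without Biotin- replicate 3. Col6a1 and Col6a2 are neighbours on chromosome 10, and 2 protein-coding genes part Col6a1 from Col18a1. The alternative chains Col6a4, Col6a5 and Col6a6 were too low to test. Col6a4 had 0 counts in Biotin+ and 11, 4 and 13 in Biotin-. With Biotin+ set to 3 counts over the group, the pooled level was 8.32-fold lower, a value that leaves out the spread among libraries.

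Among network-forming chains 3 of 9 fell, 2 did not pass and 4 were too low. Col4a1 and Col4a2 encode the chains of the common type IV collagen of basement membranes and lie next to each other on chromosome 8. Col4a2 was at 3.775, 1.75 and 5.15 CPM in Biotin+ and at 24.7, 11.8 and 15.3 CPM in Biotin- (log2 fold change -2.28 ± 0.43 SE, edgeR adjusted p = 0.0128). Col4a1 was at 1.19, 0.0625 and 0.727 against 11, 7.90 and 3.84 CPM (-3.49 ± 0.73 SE, edgeR adjusted p = 0.018). The Biotin+ libraries lay below the Biotin- ones for both genes, and Col4a1 did not pass without Biotin- replicate 1.

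The type IV pair was compared in the same way. The count ratio of Col4a1 to Col4a2 was 0.314, 0.0357 and 0.141 in Biotin+ and 0.445, 0.67 and 0.251 in Biotin-, with an overlap of the groups. Biotin+ replicate 2 gave the lowest ratio, on 1 count of Col4a1 and 28 of Col4a2. The log2 ratios differed by -1.85 (two-sided exact permutation test, p = 0.2, adjusted p = 0.5), by -1.0 without that library and by -0.67 without both libraries numbered 2. For Col4a1 to Col1a1, Col6a1 to Col1a1 and Col3a1 to Col1a1 the differences in log2 ratio were -1.33, 0.54 and 0.09 (two-sided exact permutation test, adjusted p = 0.667, 0.5 and 1). None of the 5 ratios was shown to differ between the groups by this unpaired test, which cannot reach a p of 0.05 here. Within same-numbered pairs 1 to 3, the log2 ratio of Col4a1 to Col4a2 differed by -0.50, -4.23 and -0.83 and that of Col6a1 to Col1a1 by 1.35, 0.11 and 0.16, each of a single sign. The other 3 ratios differed in sign between pairs. The Col3a1 to Col1a1 difference turned sign when Biotin+ replicate 3 or Biotin- replicate 1 was left out, or the pair numbered 1 or 3. That of Col1a1 to Col1a2 turned without Biotin+ replicate 2 or the pair numbered 2, and that of Col4a1 to Col1a1 (0.15) without the pair numbered 2.

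Type VIII collagen, a short-chain network former of vessel walls and the cornea, gave opposite signs in its pair of chains. Col8a1 was at 2.86, 1.5 and 8.54 CPM in Biotin+ and at 18.1, 16.3 and 31.8 CPM in Biotin- (log2 fold change -2.36 ± 0.55 SE, edgeR adjusted p = 0.0281). Col8a2 was at 3.18, 1.25 and 2.12 CPM in Biotin+ and at 1.46, 0.329 and 0.4865 CPM in Biotin-. The highest Biotin- library of Col8a2 lay above the lowest Biotin+ library, and its log2 fold change of 1.51 ± 0.72 (SE) did not pass (edgeR adjusted p = 0.245). Col8a1 did not pass when Biotin- replicate 3 or either of Biotin+ replicates 1 and 2 was left out. Col4a5, a chain of type IV collagen in kidney and muscle basement membranes, was at 0.3775, 1 and 2.725 against 1.995, 4.50 and 7.62 CPM. Its groups overlapped and it did not pass (-1.78 ± 0.72 SE, edgeR adjusted p = 0.17), but it passed with the replicate number as a block (edgeR adjusted p = 0.00666).

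Of the 9 FACIT chains 3 fell, 2 did not pass and 4 were too low. Col16a1, a chain found on fibrils and near basement membranes, was the abundant one, at 17.69, 17.75 and 43.5 CPM in Biotin+ and at 131, 94.3 and 178 CPM in Biotin-. The groups did not overlap, and the change was -2.35 ± 0.38 SE on the log2 scale (edgeR adjusted p = 0.00784). Col14a1 was at 1.24, 2.69 and 1.88 against 10.3, 6.09 and 3.78 CPM (-1.80 ± 0.49 SE, edgeR adjusted p = 0.0472), a call that was lost when any 1 of the 6 libraries was left out. Col12a1, which binds type I fibrils, had 0, 0 and 8 counts in Biotin+ and 142, 58 and 26 in Biotin-. Its estimate of -4.54 ± 1.13 SE (edgeR adjusted p = 0.0342) rests on those few Biotin+ counts and passed only without Biotin+ replicate 3 among the single libraries left out. Col20a1 (-0.72 ± 0.62 SE) and Col9a3 (-1.94 ± 0.97 SE) did not pass, and their ranges overlapped.

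The multiplexins are basement membrane collagens with many breaks in the helix. Col18a1, the precursor of the fragment endostatin, was at 24.4, 20.7 and 24.2 CPM in Biotin+ and at 142, 81.0 and 137 CPM in Biotin-. It was the most even of the abundant chains in Biotin+, 1.18-fold from lowest to highest, and fell with an estimate of -2.38 ± 0.25 SE (edgeR adjusted p = 0.00442). Col15a1 was at 1.35, 0.3125 and 0.606 against 9.29, 2.14 and 2.27 CPM. Its ranges did not overlap and it just missed the threshold (-2.57 ± 0.75 SE, edgeR adjusted p = 0.0625), but passed with the replicate block (edgeR adjusted p = 0.00241). Col7a1, which anchors the epidermis to the dermis, was at 5.77, 3.69 and 14.5 against 34.3, 21.4 and 46.9 CPM (-2.10 ± 0.47 SE, edgeR adjusted p = 0.0245), and lost the call without Biotin+ replicate 1 or 2 or Biotin- replicate 1 or 3. Among the transmembrane chains only Col17a1, of hemidesmosomes, could be tested (-1.18 ± 1.0 SE, edgeR adjusted p = 0.532).

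The genes too low to test add little. Col13a1, Col19a1, Col26a1, Col4a6, Col9a1 and Col9a2 had 0 counts in all 6 libraries, which allows a level of up to 0.146 to 0.188 CPM in a library (3 counts, counting error only). Col28a1 had 0 counts in Biotin+ and 13, 3 and 2 in Biotin- replicates 1 to 3, so that most came from replicate 1. With Biotin+ at 3 counts the pooled level was 5.35-fold lower, a value that leaves out the spread among libraries. Col2a1, the main cartilage chain, had 8 counts in Biotin+ replicate 3, 3 over the Biotin- libraries and none elsewhere. Col23a1 had 17 counts in Biotin+ and 23 in Biotin-. The other 10, Col6a4 to Col6a6 included, had at most 28 counts in either group.

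Levels of different chains were compared per length. In Biotin-, the RPKM values (TMM-scaled CPM per kilobase of the coding transcript) were 70.6 ± 5.94 for Col3a1, 36.9 ± 8.48 for Col6a1, 33.5 ± 9.69 for Col6a3, 32.2 ± 13.1 for Col1a1 and 31.3 ± 8.59 for Col6a2 (SD, n = 3). Col3a1 stood clear of the rest, and the 4 that follow do not differ beyond their spread. In Biotin+, Col3a1 (11.6 ± 7.32 RPKM) and Col6a1 (7.63 ± 3.21 RPKM) again led, and those 2 are not separated by their spread. The order depends on the length used. Over all annotated exons Col3a1 and Col6a1 stood at 40.0 ± 3.37 and 34.5 ± 7.94 RPKM in Biotin-, within their spread, and at 6.57 ± 4.15 and 7.14 ± 3.0 RPKM in Biotin+. Col3a1 made up 19.1% of the summed collagen RPKM in Biotin+ and 22.9% in Biotin-, and Col1a1 7.86% and 10.1%. A larger part in Biotin+ follows by arithmetic for a gene that fell less than the collagen sum. Among genes not called lower, the mean part was 1.26% against 0.282% for Col11a2 and 0.949% against 0.0529% for Col8a2. It was 0.77% against 0.127% for Col27a1 and 0.653% against 0.177% for Col20a1. The CPM ranges of these genes overlapped between the groups. By counts, fibrillar chains were 39.1% to 45.4% of the collagen reads in Biotin+ and 43.7% to 51.4% in Biotin-, and beaded filament chains 29.5% to 38.2% and 30.3% to 34.0%, so that both classes overlapped between the groups.

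Within a group, the same library was high or low for most of the genes that fell. Over the 17 genes that fell, Biotin- replicate 2 was the lowest Biotin- library for 13 and the highest for 0. Replicate 1 was the highest for 10, Col1a1, Col1a2 and Col4a1 among them, and replicate 3 for the other 7, among them Col6a1, Col6a2, Col7a1, Col8a1 and Col16a1. In Biotin+, replicate 3 was the highest library for 13 and replicate 2 the lowest for 13. The number of genes called lower was 12 to 17 when 1 library was left out (13 without Biotin+ replicate 2, 12 without Biotin- replicate 3), 11 without both libraries numbered 1 and 9 without both numbered 2. Over all genes, 2.63%, 1.75%, 2.88% and 3.27% fell in those 4 fits. Col18a1, Col1a1, Col3a1, Col5a1, Col5a2, Col5a3 and Col6a1 passed whichever library, or pair of equal number, was left out. These leave-out fits had no replicate block. All 17 passed in the fit of all 6 libraries with the block. Among them were Col7a1, Col8a1, Col12a1 and Col14a1 (edgeR adjusted p = 1.42e-05, 2.3e-05, 0.00558 and 0.0121).

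Summed markers of several other cell types were also lower in Biotin+, fibroblast markers by the fold closest to that of the collagens. The 10 fibroblast markers, which hold no collagen, summed to 103, 72.1 and 148 CPM in Biotin+ and to 588, 376 and 618.5 CPM in Biotin-, 4.90-fold apart in the mean, against 5.44-fold for the summed collagen CPM. Of the 9 tested, 5 fell, 0 rose and 4 did not pass, where 6.72% of all tested genes fell. With the replicate block 6 fell, where 12% of all genes did. Among the most abundant, Fbln2 (fibulin 2, a matrix protein) and Dcn (decorin, a proteoglycan on collagen fibrils) fell with log2 fold changes of -2.30 ± 0.34 and -2.48 ± 0.20 (SE). In Biotin- they averaged 346 and 125 CPM, most of the mean sum of 528 CPM, so the sum mainly follows Fbln2 and Dcn. Pdgfrb, Lum, Dpt and Clec3b, named after their values were seen, did not pass (-2.03 ± 0.61, -0.96 ± 0.72, -1.23 ± 0.71 and -2.13 ± 0.78 SE). Fbln1, a related fibulin, fell with -1.81 ± 0.44 (SE). Fap, the fibroblast activation protein, had 0 counts in all 3 Biotin+ libraries and 9, 6 and 0 in Biotin-.

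The other lists differed by a smaller fold, and the epithelial sum was higher in Biotin+ in the mean (61.5 against 32.2 CPM). That higher mean rested mostly on Biotin+ replicate 1, at 135.6 CPM, with replicates 2 and 3 at 25.44 and 23.44 CPM. Single markers went both ways within the pericyte, endothelial and epithelial lists. All 9 macrophage and monocyte markers had negative log2 fold changes, from -0.39 (Cd14) to -1.97 (Mrc1). Over all tested genes 6.72% fell and 1.53% rose, and 12% and 5.6% with the block. Pericyte and smooth muscle markers summed to 19.0 to 30.6 CPM in Biotin+ and 57.6 to 102 CPM in Biotin-, with 1 of 4 tested lower (Cspg4; 2 with the block). Des was at 0 in Biotin+, Tagln was at 0 in Biotin- and had 3 counts in Biotin+ replicate 3, and Mcam had a log2 fold change of 0.01 ± 0.35 (SE). Endothelial markers summed to 11.7 to 24.8 and 22.2 to 31.9 CPM, with 0 of 4 tested past the threshold (1 lower with the block). Emcn, Tek, Tie1 and Ptprb were at 0 in Biotin+, while Egfl7 was above its Biotin- level in every Biotin+ library (3.86 against 1.98 CPM in the mean) and did not pass. Macrophage and monocyte markers summed to 343 to 1037 and 774.5 to 2770.0 CPM, with 0 of 9 past the threshold (3 lower with the block). Epithelial and tumour markers summed to 23.4 to 136 and 14.3 to 56.9 CPM, with 0 of 2 past it (Cdh1 higher with the block). Cdh1 stood at 128.7, 20.69 and 19.44 CPM in Biotin+ replicates 1 to 3 and at 51.76, 20.67 and 9.244 CPM in Biotin-. Its ranges overlapped, the libraries numbered 2 were nearly equal, and the Biotin+ mean (56.3 against 27.2 CPM) rested mostly on replicate 1. Epcam averaged 4.247 and 4.333 CPM, and Krt18 counts were 29, 7 and 3 in Biotin+ and 2, 2 and 7 in Biotin-. Krt8, Krt19, Cldn4 and Vil1 were at 0 in Biotin+, and Cldn7 was at 0 in Biotin- with 1, 7 and 3 counts in Biotin+. Schwann cell markers summed to at most 2.14 CPM, with 0 of 1 past it and Sox10 at 0 in all 6. These single markers were named after their values were seen. The part of these cell types in the collagen result was not tested.

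**Figure D3:**
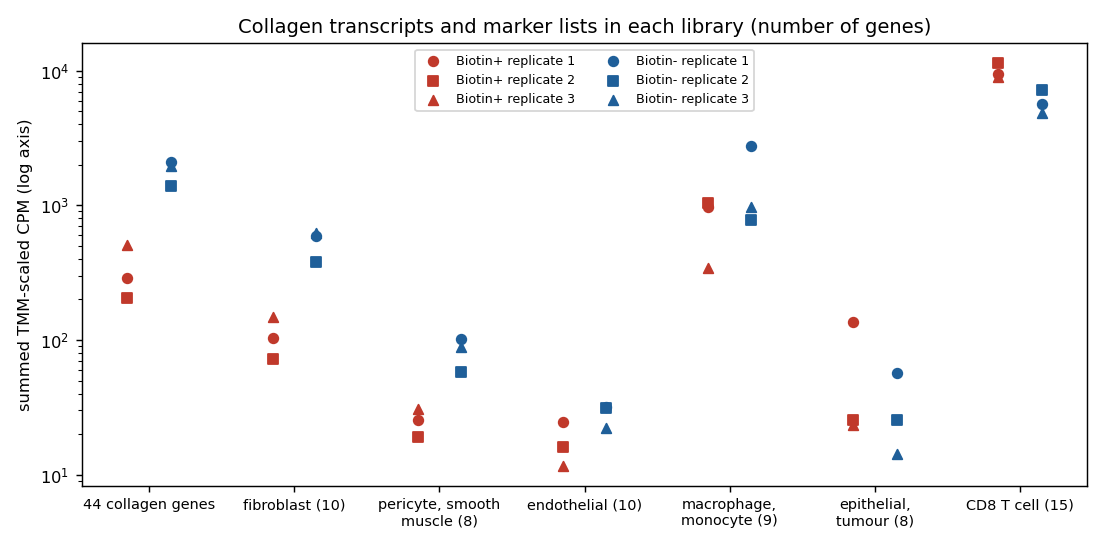
Summed TMM-scaled CPM, on a log axis, of the 44 collagen genes and of 6 marker lists in each library; colours are groups and symbols are replicate numbers. The collagen sum was 204.8 to 511 CPM in Biotin+ and 1403 to 2105 CPM in Biotin-. The fibroblast markers and the pericyte and smooth muscle markers are parted in the same way as the collagen sum. CD8 T cell markers are parted the opposite way, and the endothelial, macrophage and epithelial lists overlap.

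The collagens were also set against the fibroblast markers. There were 2.81, 2.84 and 3.46 collagen counts per fibroblast marker count in Biotin+ and 3.58, 3.73 and 3.17 in Biotin-, with overlap. When libraries were scaled to the summed fibroblast markers, 1 of the 25 collagen genes was lower (Col12a1) and 4 were higher, and 20 did not pass. This scaling is set mainly by Fbln2 and Dcn, which make up most of the sum. Under that scaling 0.105% of all tested genes were lower and 85.8% higher, and the median of all genes moved by 2.33 on the log2 scale. The 4 higher ones were Col8a2 (log2 fold change 3.87 ± 0.75 SE), Col27a1 (2.39 ± 0.60 SE), Col11a2 (2.05 ± 0.55 SE) and Col20a1 (1.67 ± 0.70 SE), with edgeR adjusted p-values of 1.41e-06, 9.49e-05, 0.000313 and 0.0209. Col1a1, Col1a2 and Col3a1 then had log2 fold changes of -0.58 ± 0.49, -0.84 ± 0.48 and -0.44 ± 0.52 (SE) and did not pass. Libraries were also scaled to the 15 CD8 T cell markers, by the median log ratio over these markers and not by their sum. That moved the median of all genes by -0.697. With this scaling 19 collagen genes fell and 0 rose, where 25% of all genes fell and 0.217% rose.

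**Figure D4:**
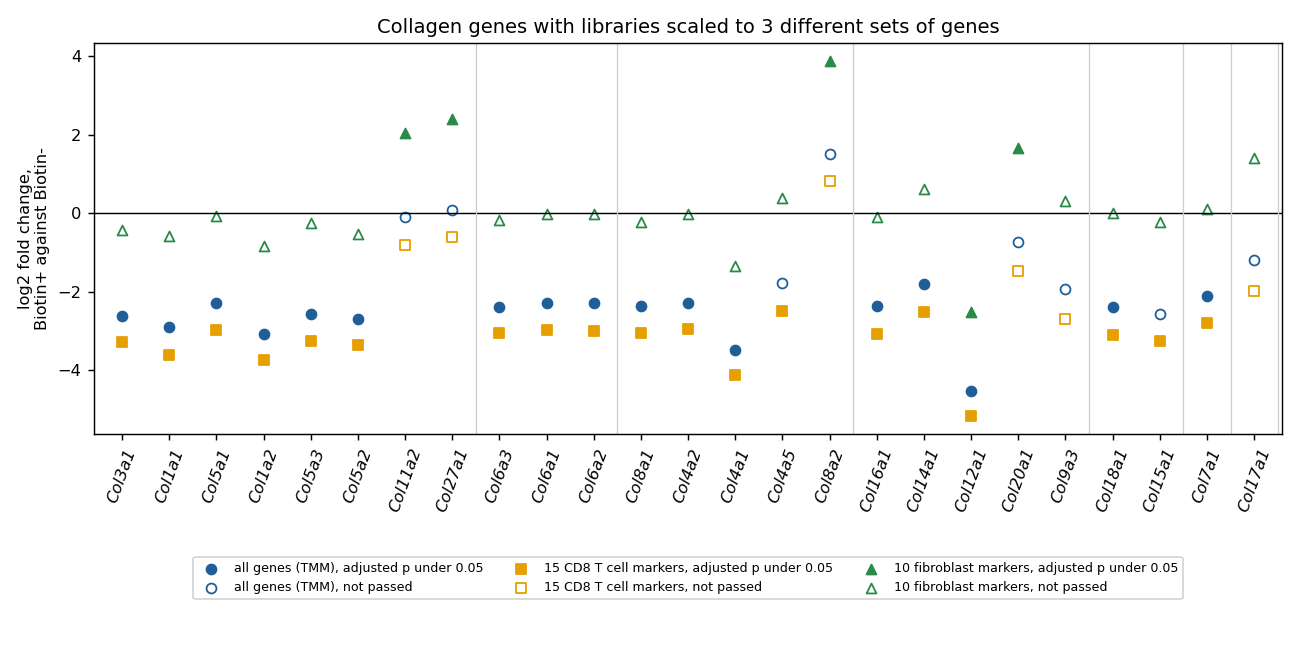
Log2 fold change of the 25 tested collagen genes with libraries scaled to all genes (circles), to 15 CD8 T cell markers (squares) or to 10 fibroblast markers (triangles); filled symbols passed an adjusted p of 0.05. With fibroblast markers most genes lie within 1 of 0, apart from Col8a2, Col27a1, Col11a2, Col20a1 and Col17a1 above and Col12a1 and Col4a1 below.

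Some of the enzymes that make collagen were also lower in Biotin+. Of 20 genes for chain modification and folding, 8 fell, 0 rose, 10 did not pass and 2 were too low, where 6.72% of all tested genes fell. The number that fell was 12 with the replicate block, where 12% of all genes fell. It was 4 without Biotin+ replicate 2 or Biotin- replicate 3, where 2.63% and 1.75% of all genes fell. Without Biotin- replicate 1 or the pair numbered 1 or 3 it was 5, where 3.25%, 2.88% and 4.39% of all genes fell. Serpinh1 (HSP47, the chaperone of procollagen) averaged 100.4 ± 34.2 CPM (SD) over the Biotin+ libraries and 463 ± 144 CPM over the Biotin- libraries. Its log2 difference was -2.21 ± 0.31 SE (edgeR adjusted p = 0.00603). Fkbp10 (a prolyl isomerase of procollagen), P4ha2 (a chain of prolyl 4-hydroxylase) and P3h4 (a partner of the lysyl hydroxylases) had log2 fold changes of -2.11 ± 0.32, -2.35 ± 0.39 and -2.37 ± 0.40 (SE). P4hb and Ppib, folding enzymes that all cells use, had values of 0.00 ± 0.21 and 0.55 ± 0.26 (SE) and did not pass. P3h1, Crtap, Plod2 and Plod3, named like P4hb and Ppib after their values were seen, did not pass and were lower with the block (edgeR adjusted p = 0.00199, 0.0136, 0.00791 and 0.00451).

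Outside the cell, propeptides are removed and fibrils are cross-linked. Of 13 such genes 9 fell (6.72% over all genes), 0 rose, 1 did not pass and 3 were too low. Only 4 fell without Biotin+ replicate 2, Biotin- replicate 3 or the pair numbered 1 or 2. In those fits 2.63%, 1.75%, 2.88% and 3.27% of all genes fell. The lysyl oxidases Loxl3 and Loxl1, which form the cross-links, fell, with log2 estimates of -2.74 ± 0.37 and -2.63 ± 0.38 (SE). Pcolce, an enhancer of propeptide cleavage, and Bmp1, the protease it helps, had values of -2.28 ± 0.33 and -2.24 ± 0.45 (SE, edgeR adjusted p = 0.00618 and 0.0154). The call of Bmp1 was lost without Biotin+ replicate 2, Biotin- replicate 3 or the pair numbered 1 or 2, and that of Pcolce was kept. The exception was Adamts14, which removes the amino-terminal propeptide, at 0.78 ± 0.24 (SE, edgeR adjusted p = 0.0764; 0.0349 and higher in Biotin+ with the block), named after its values were seen.

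Collagen receptors went both ways. Of 10 genes 2 fell, 1 rose, 5 did not pass and 2 were too low. Over all tested genes 6.72% fell and 1.53% rose. The receptor tyrosine kinases Ddr2 and Ddr1 fell, with -2.40 ± 0.48 and -1.65 ± 0.30 (SE) on the log2 scale. The call of Ddr2 was lost without Biotin+ replicate 1, Biotin- replicate 3 or the pair numbered 1, and that of Ddr1 without Biotin+ replicate 2, Biotin- replicate 3 or the pair numbered 3. Adgrg1 (GPR56), an adhesion receptor that binds type III collagen and is known from cytotoxic lymphocytes, averaged 55.25 ± 21.9 CPM (SD) over the Biotin+ libraries and 19.2 ± 8.24 CPM over the Biotin- libraries. The ranges did not overlap, and it rose by 1.52 ± 0.35 (SE, edgeR adjusted p = 0.0264). Itga1, the integrin chain of the collagen receptor VLA-1, had a value of 1.33 ± 0.43 (SE, edgeR adjusted p = 0.0909). It passed with the block (edgeR adjusted p = 0.000422), which makes 2 receptors higher there, where 5.6% of all genes were. Its partner Itgb1 (-0.16 ± 0.27 SE) and the inhibitory collagen receptor Lair1 (-0.44 ± 0.49 SE), both named after their values were seen, did not pass.

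Of 9 genes of collagen breakdown and uptake 3 fell, 0 rose, 4 did not pass and 2 were too low. Among all tested genes 6.72% fell and 1.53% rose. The gelatinase Mmp2, the uptake receptor Mrc2 (Endo180) and the membrane protease Mmp14 fell, with log2 estimates of -2.35 ± 0.29, -2.23 ± 0.34 and -1.44 ± 0.26 (SE). The collagenase Mmp13 did not pass (-1.43 ± 0.43 SE, edgeR adjusted p = 0.0727; 0.00128 with the block), and with the block 5 fell. Over the 4 lists 22 of 52 genes fell and 1 rose. The number that fell dropped to 12 when Biotin+ replicate 2 was left out and to 11 without Biotin- replicate 3. It dropped to 13 with both libraries numbered 1 removed. In those fits 2.63%, 1.75% and 2.88% of all genes fell. The rise of Adgrg1 was lost without Biotin+ replicate 2, without either of Biotin- replicates 1 and 3, without both libraries numbered 3, under the CD8 T cell marker scaling and in the test against a fold of 1.5. With the block 3 of the 52 were higher and 28 lower, where 5.6% and 12% of all genes were. Median log2 fold changes were -0.30 (receptors), -1.11 (modification and folding), -2.35 (propeptides and cross-linking) and -1.44 (breakdown and uptake). The fibroblast marker sums given above were lower in Biotin+ too, and their part in these lists was not tested.

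**Figure D5:**
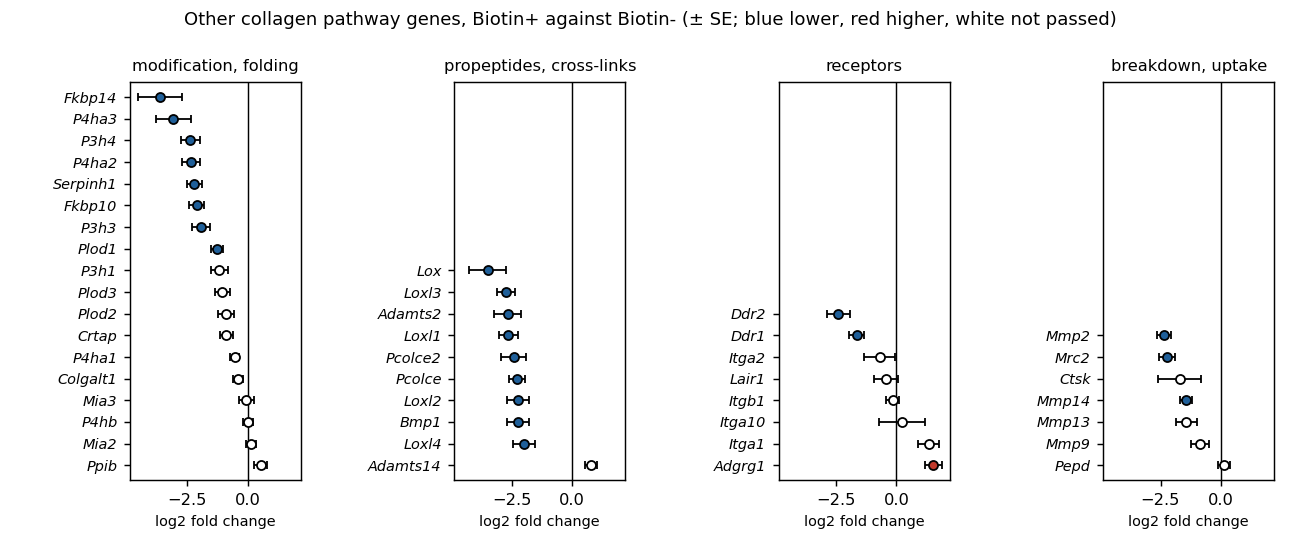
Log2 fold change, Biotin+ against Biotin-, with the standard error, of the 43 tested genes of 4 collagen pathway lists; blue points fell, red points rose and white points did not pass an adjusted p of 0.05. Cross-linking and propeptide genes lie left of 0 except Adamts14, and Adgrg1 and Itga1 lie to the right among the receptors.

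Promoters of the collagen genes were compared for short motifs, as far as RefSeq promoter sequences (GRCm38.p6) matched by symbol, which they did for 35 of the 44. In the 150 bases before the start, the GC box GGGCGG was found on either strand in 54.29% of collagen promoters and 28.97% of all 27025 promoters, and CCAAT in 20% and 25.27%. The collagen windows were also richer in G and C (median 59.6% against 52% over the 250 bases before the start). Among promoters of genes that fell 7 of 13 held GGGCGG, and 4 of 7 of those that did not pass. The 120 bases before the start are shown for a pair of fibrillar genes that fell (Col3a1, Col5a1) and the pair that did not (Col11a2, Col27a1), all on the plus strand, 5′ to 3′, with GGGCGG on either strand in capitals. They lie at chr1:45311418-45311537, chr2:27886305-27886424, chr17:34039018-34039137 and chr4:63215292-63215411 in GRCm38.p6, with no annotated exon in any of them.
Col3a1: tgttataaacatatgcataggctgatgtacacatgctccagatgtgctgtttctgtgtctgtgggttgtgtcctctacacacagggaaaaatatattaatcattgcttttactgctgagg
Col5a1: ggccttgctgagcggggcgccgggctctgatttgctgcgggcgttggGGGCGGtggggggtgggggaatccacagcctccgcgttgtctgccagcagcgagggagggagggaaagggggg
Col11a2: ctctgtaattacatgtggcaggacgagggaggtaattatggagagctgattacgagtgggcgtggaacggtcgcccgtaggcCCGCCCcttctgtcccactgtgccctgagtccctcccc
Col27a1: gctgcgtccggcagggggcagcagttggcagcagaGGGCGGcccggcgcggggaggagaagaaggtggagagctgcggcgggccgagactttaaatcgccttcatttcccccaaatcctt
The motif was present in Col5a1, Col11a2 and Col27a1 and not in these letters of Col3a1.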

How the data were processed

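Raw read counts per gene symbol, 1 column per library, were deposited as whole numbers without normalization. The submitters' processing notes name Trim Galore 0.6.7, STAR 2.7.10a, Picard 1.14, featureCounts 2.0.1 and GRCm39, without their roles; for the annotation, the strand setting and multimapping reads nothing is stated there. Where reads are counted without strand, overlapping genes cannot be told apart. In GENCODE M21 other genes covered at most 6.07% of a collagen gene's exons, and at most 2.97% of its 75-base windows occurred in another gene (Col6a5 and Col6a6).

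Groups and replicate numbers came from sample titles. All 40879 genes entered edgeR 4.0.16 (R 4.3.3): filterByExpr, TMM, robust quasi-likelihood fit on the group, Benjamini-Hochberg adjustment over 13360 tested genes, threshold 0.05. Log2 fold changes are Biotin+ minus Biotin-, and SE is the log2 fold change over the root of F. Alternatives were other scalings, filters, DESeq2 1.42.0, limma 3.58.1 (voom), a test against a fold of 1.5, a replicate block and left-out libraries; leaving out pairs for the ratios was chosen after seeing the data. Same-numbered libraries deviated together (r = 0.366, 0.263 and 0.393 across genes, and -0.0721 to -0.276 for different numbers). Every such r was over 0.1, the limit set for treating equal numbers as pairs. The main fit still used the group alone, and the pairing entered only through the replicate block. No 2 replicates agreed within sampling noise (chi-square of 35.6 to 103 for each degree of freedom). All tested collagen genes are named, with up to 4 genes of smallest p per pathway list; others are said to be named after their values were seen. The members and lists were chosen with earlier results of these data known. Counts total 16423106 to 19640693 per library; limits for 0 counts cover counting error only, since PCR copies were not marked by identifiers. Transcript lengths, coding sequences and neighbours come from GRCm38 references, another build than GRCm39.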

Additional observations from a re-analysis of the deposited data

How the results depend on the processing

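Under RLE, upper quartile and library size scaling, filters of CPM 1 in 3 libraries or mean CPM 1, the same 17 collagen genes fell, and under DESeq2, no filter, the replicate block and CD8 T cell marker scaling all 17 fell with 1 to 3 more. limma-voom gave 15 and the test against a fold of 1.5 gave 13 of the 17. Fibroblast marker scaling gave 1 lower and 4 higher, and turned the signs of Col14a1 (0.61), Col17a1 (1.41), Col18a1 (0.0149), Col4a5 (0.38), Col7a1 (0.11), Col9a3 (0.32), Col20a1 (1.67) and Col11a2 (2.05); the cause was not tested. Col11a2 was 0.14 by limma-voom. Col27a1 was -0.12 with library size alone, -0.62 with CD8 T cell markers, -0.11 by limma-voom and -0.085 with the replicate block. With libraries or pairs left out, 9 to 17 collagen genes fell and 0 rose, Col11a2 ranged from -1.16 to 0.39 and Col27a1 from -0.36 to 0.55. The log2 ratio differences then ranged from -0.0269 to 0.54 (Col1a1 to Col1a2), -0.21 to 0.42 (Col3a1 to Col1a1), -2.57 to -0.67 (Col4a1 to Col4a2), -2.26 to 0.15 (Col4a1 to Col1a1) and 0.13 to 0.82 (Col6a1 to Col1a1). The collagen share ranged from 0.0226% to 0.0399% in Biotin+ and 0.182% to 0.224% in Biotin-. Of the pathway genes 11 to 25 were lower and 0 to 2 higher without a library or pair. Fibroblast marker scaling gave 0 lower and 22 higher, CD8 T cell markers 0 higher, no filter 2, DESeq2 3, the fold of 1.5 0 and the replicate block 3. The block added Col15a1 and Col4a5 (19 lower in all) and changed no other collagen call. Outside the marker scalings, 1.75% to 12% of all genes were lower and 0.168% to 5.6% higher. Depth limits low genes such as Col12a1, with 8 counts in Biotin+.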
